A study of Mus musculus with 22 samples.

Results

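The whole cochlea at P14 was set against the whole cochlea at P8, across the week that ends with the onset of hearing in mice. Input libraries, made from total RNA of the whole cochlea with no antibody step, were chosen by their age label: 2 at P14 and 2 at P8, or 4 of the 22 libraries in the series. All mice were PrestinCreERT2/+;RiboTagHA/+, so that a tamoxifen-dependent Cre made from the prestin locus could tag a ribosomal protein in outer hair cells. Both ages fell under the lower tamoxifen dose, 3 mg per 40 g of body weight, so the P14 and P8 groups shared both alleles and the dose. The other libraries were 7 inputs at P28, 6 weeks and 10 weeks and 11 pulldowns of tagged ribosomes. The series names biological duplicates or triplicates, but the labels do not say how many animals each library pooled, and p-values rest on the spread between libraries.

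The cochlea turns sound into nerve signals in its sensory epithelium, which lies under the tectorial membrane, a gel of collagen and of glycoproteins such as the tectorins. The stria vascularis and the fibrocytes of the lateral wall pump and recycle potassium to build the endocochlear potential, and glial and supporting cells join in through gap junctions. Spiral ganglion neurons carry the signal to the brain along axons that become myelinated in the first weeks after birth. In mice these parts mature together before hearing begins, under control of thyroid hormone among other signals.

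The label was checked against cochlear genes. Tectorial membrane, fibrocyte, stria and hair cell genes were detected in all 4 libraries. The 14 tectorial membrane genes summed to 19592 and 14210.0 CPM at P14, against 39794 and 36416 CPM at P8. Most of that sum came from collagen genes that cartilage also uses, with Col2a1 at 18158 and 18148 CPM at P8. The 14 outer hair cell genes summed to 548 and 429.7 CPM at P14, against 613 and 592 CPM at P8. CPM here is reads of a gene per 1000000 gene reads, leaving out Gm42418, an annotated gene over a ribosomal RNA copy, and corrected by TMM (trimmed mean) factors. P8 input 2 stood apart. Gm42418 took 58.3% of its gene reads, against 2.81% to 5.83% in the other 3 libraries, and it kept 8199831 gene reads without it, against 33042956 to 38785388. Of its reads, 51.4% had no unique place, and after rescaling 10 genes still held 37.5% of its CPM. P14 input 1 lacked more genes than the others: 238 genes were under 1 CPM there and at 5 CPM or more in each of the other 3 libraries, against 11 in P14 input 2, 18 in P8 input 1 and 61 in P8 input 2. Replicates correlated across genes at a Pearson r of 0.906 at P14 and 0.925 at P8 on log2(CPM + 1), and genes are not independent replicates. P14 input 2 correlated more closely with P8 input 1 (0.915) and with the 6- and 10-week inputs (0.936 to 0.948) than with P14 input 1.

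Between P8 and P14 the whole cochlea changed in both directions, and more genes were higher at P14 than lower. Of 17668 genes tested, limma called 1236 (7.0%) at an adjusted p under 0.05, with 864 higher (4.89%) and 372 lower (2.11%) at P14. At an unadjusted p under 0.05 there were 3823. The shares of 4.89% higher and 2.11% lower are the background for all counts of list members called below. Without a test, both P14 libraries lay above both P8 libraries for 23.9% of the genes and below both for 20.1%. Of the higher genes 645 differed at least 2-fold and 63 at least 8-fold, and of the lower genes 330 and 20, on the log2(CPM + 1) scale, which understates the change of genes with low values. The count depended on the libraries: without P14 input 1 there were 534 calls, without P14 input 2 there were 2178, without P8 input 1 there were 997 and without P8 input 2 there were 507. Higher genes made up 69.9% of the calls, 58.8% (779 higher, 546 lower) with quantile normalization and 96.4% (80 higher, 3 lower) with CPM as deposited, where the median of all genes moved to a log2 change of 0.94. In RNA of a whole organ, fewer cells of a type and less RNA per cell cannot be told apart.

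**Figure D1:**
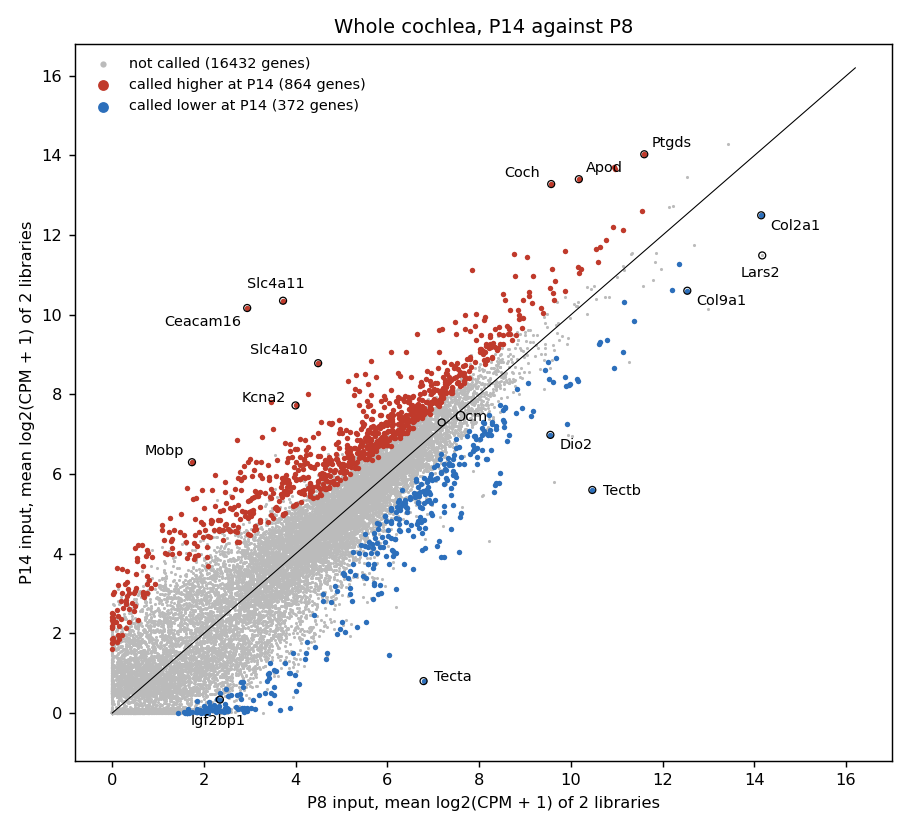
Mean log2(CPM + 1) of the 2 P14 input libraries (vertical axis) against that of the 2 P8 input libraries (horizontal axis), 1 point per gene tested, with the line of equal values. The 864 genes called higher at P14 lie above the line and the 372 called lower lie below it, with Ceacam16 and Slc4a11 farthest above and Tecta and Tectb farthest below; Lars2 is high in only 1 of the P8 libraries and is not called.

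The tectorial membrane genes moved apart. The tectorins, which form its striated sheet matrix, were many-fold lower at P14, while Ceacam16, a secreted adhesion protein that joins them in the mature membrane, went the other way. Tecta, encoding alpha-tectorin (chromosome 9, 42329619 to 42399929 on GRCm38), was at 1.36 and 0.285 CPM at P14, against 127 and 94.6 CPM at P8. Both P14 libraries lay far below both P8 libraries (log2 change -5.99, SE 0.61, limma adjusted p = 0.000222). Tectb, encoding beta-tectorin (chromosome 19, 55180733 to 55196313), was at 71.2 and 31.6 CPM at P14, against 1743 and 1147 CPM at P8 (log2 change -4.87, SE 0.58, limma adjusted p = 0.000608). Ceacam16 (chromosome 7, 19852097 to 19861299) was at 1105 and 1199 CPM at P14, against 3.78 and 11.4 CPM at P8 (log2 change 7.23, SE 0.34, limma adjusted p = 2.18e-06), the largest increase among genes with a mean of at least 5 CPM at one age. All 3 calls held with each of the 4 libraries left out in turn, with adjusted p from 0.00117 to 0.00241 for Tecta, 0.00545 to 0.0136 for Tectb and 5.21e-07 to 0.000373 for Ceacam16.

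The promoters of Tectb and of Mobp and Coch, described below, belong to genes with large changes in each direction. They are shown for that reason, and because the first 2 carry a TATA-like motif at the usual distance from the RefSeq start. Each sequence runs from 250 bases before to 50 bases after the RefSeq gene start on GRCm38.p6, on the plus strand, and capitals mark TATANA.
Tectb, chr19:55180476-55180775: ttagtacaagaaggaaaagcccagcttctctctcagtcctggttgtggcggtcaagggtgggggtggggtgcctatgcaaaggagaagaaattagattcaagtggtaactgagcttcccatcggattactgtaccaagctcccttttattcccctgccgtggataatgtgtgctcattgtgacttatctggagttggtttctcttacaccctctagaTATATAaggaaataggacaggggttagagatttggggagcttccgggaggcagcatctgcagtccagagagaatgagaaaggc
Mobp, chr9:120149492-120149791: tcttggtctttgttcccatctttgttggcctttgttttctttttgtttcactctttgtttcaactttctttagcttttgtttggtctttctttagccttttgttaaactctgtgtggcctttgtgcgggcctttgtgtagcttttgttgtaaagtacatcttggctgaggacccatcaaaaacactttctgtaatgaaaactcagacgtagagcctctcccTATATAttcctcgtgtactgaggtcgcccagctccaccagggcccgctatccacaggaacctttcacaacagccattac
Coch, chr12:51593091-51593390: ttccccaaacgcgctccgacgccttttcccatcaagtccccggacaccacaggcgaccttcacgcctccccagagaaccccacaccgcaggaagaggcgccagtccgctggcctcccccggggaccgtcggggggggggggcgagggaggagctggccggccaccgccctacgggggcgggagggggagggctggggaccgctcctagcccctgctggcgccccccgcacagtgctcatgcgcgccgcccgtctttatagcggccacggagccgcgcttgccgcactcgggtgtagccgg
TATANA was searched on both strands between 50 and 10 bases before the start. It was found as TATATA, a sequence that is its own reverse complement, 33 bases before the start of Tectb and 29 bases before that of Mobp, and not in that window of Coch. Of 12113 tested symbols with a promoter in the RefSeq set, 3.62% held a match on either strand, as did 5.49% of 638 higher symbols and 5.95% of 252 lower symbols. A match describes letters only. Gene positions given elsewhere in the text are from GENCODE, whose starts for Tectb and Mobp differ from the RefSeq starts. The distances hold for the RefSeq starts only, and the GENCODE start of Mobp lies before its motif. No entry for Ceacam16 or Slc4a11 was used.

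Of the other tectorial membrane genes, most were lower at P14. The 14 genes of the list had 1 called higher and 8 called lower, with a median log2 change of -1.12 against 0.03 over all genes. Otog, encoding otogelin, an anchoring glycoprotein, was at 76.6 and 71.9 CPM at P14, against 133 and 134 CPM at P8 (log2 change -0.84, SE 0.22, limma adjusted p = 0.0456). Otogl, its relative, was at 1.77 and 21.8 CPM at P14, against 52.2 and 56.0 CPM at P8, so that the P14 libraries differed over 10-fold from each other (log2 change -2.79, SE 0.72, limma adjusted p = 0.04). Without P14 input 1, P8 input 1 or P8 input 2 its call was lost, and adjusted p ran from 0.001 to 0.195. The collagen genes Col2a1, Col9a1, Col11a1 and Col5a2 were called lower too. Col9a1, a chain of a collagen that coats fibrils, was at 2035 and 1188 CPM at P14, against 6746 and 5235 CPM at P8 (log2 change -1.93, SE 0.34, limma adjusted p = 0.00632), and held with each library left out. Col2a1, the main fibril collagen of cartilage and of the tectorial membrane, was at 7366 and 4539 CPM at P14, against 18158 and 18148 CPM at P8 (log2 change -1.65, SE 0.37, limma adjusted p = 0.022), but lost its call with any 1 library out, at adjusted p 0.0541 to 0.103. The lower calls numbered 3, 4, 5 and 3 without P14 input 1, P14 input 2, P8 input 1 and P8 input 2. Otoa, Col9a2, Col9a3, Col11a2 and Strc were not called, with log2 changes of -0.60, -0.80, -0.93, 0.22 and 0.29. Cartilage shares its collagens with the membrane. The cartilage list summed to 14718 and 9642 CPM at P14, against 29733 and 27209 CPM at P8. Col2a1 and Col9a1 are in both lists and made up most of the cartilage sum, so this fall is not separate from theirs. Of the other cartilage genes, Matn4 and Snorc were called lower and Ucma and Hapln1 higher. The part of cartilage in the collagen changes was not tested. Tecta, Tectb and Otog are not in the cartilage list.

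**Figure D2:**
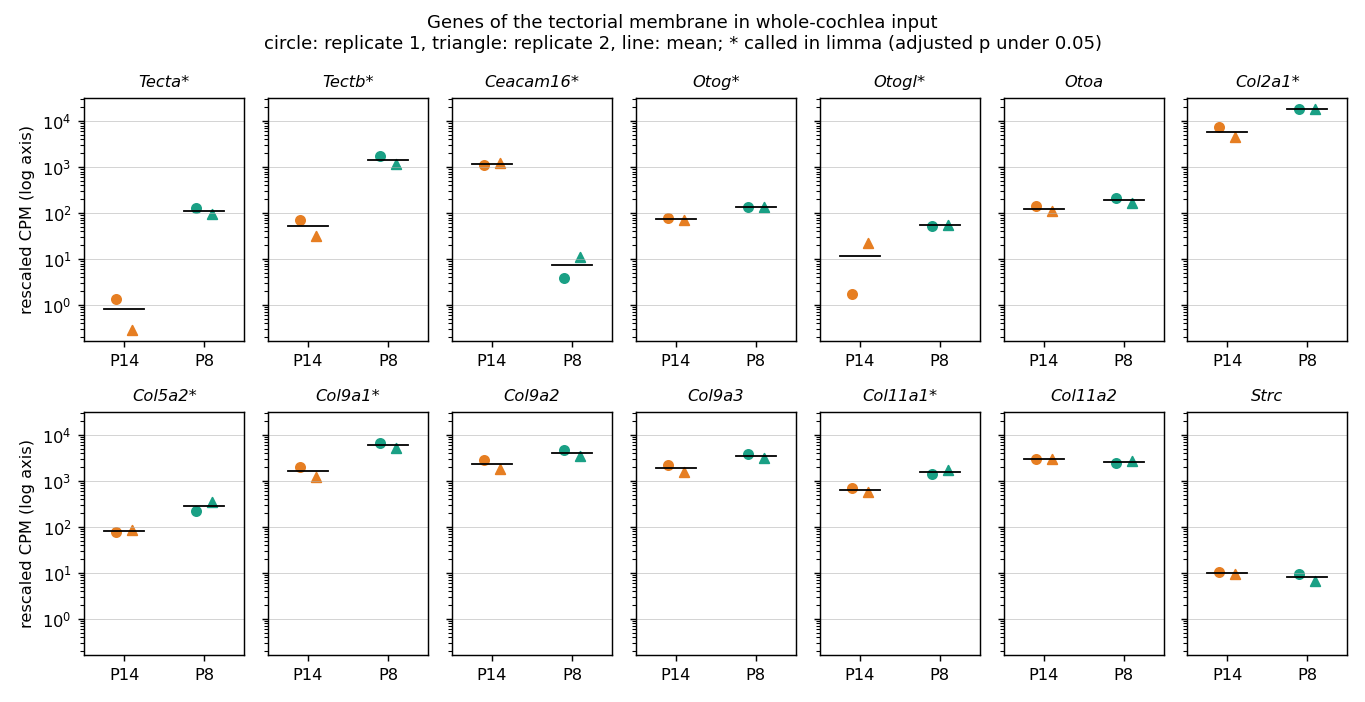
Rescaled CPM on a log axis of the 14 tectorial membrane genes in the 2 P14 (left) and 2 P8 (right) input libraries, with circles for replicate 1, triangles for replicate 2 and a line at the mean; an asterisk marks the 9 genes called. Tecta and Tectb sit lower at P14 and Ceacam16 higher, while Otogl has 1.77 and 21.8 CPM in the P14 libraries, against 52.2 and 56.0 CPM in the P8 libraries.

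Genes of cochlear fibrocytes, the connective tissue cells of the spiral ligament and limbus, gave some of the largest increases in the whole cochlea. Slc4a11, a membrane transporter of these cells (chromosome 2, 130684113 to 130697519), was at 1232 and 1386 CPM at P14, against 6.03 and 23.8 CPM at P8 (log2 change 6.63, SE 0.42, limma adjusted p = 1.18e-05). Coch (chromosome 12, 51593341 to 51605771), encoding cochlin, an abundant matrix protein of the inner ear, was at 9931 and 9996 CPM at P14, against 668 and 862 CPM at P8 (log2 change 3.71, SE 0.23, limma adjusted p = 1.18e-05). For both genes the P14 libraries lay close together and many-fold above the P8 libraries. Otos, encoding otospiralin, which fibrocytes secrete, was at 16425 and 10045 CPM at P14, against 1940.0 and 2070.1 CPM at P8 (log2 change 2.68, SE 0.31, limma adjusted p = 0.000467). Apod, a lipid-binding lipocalin, was at 12502 and 9414 CPM at P14, against 1123 and 1185 CPM at P8 (log2 change 3.23, SE 0.25, limma adjusted p = 3.24e-05). Car2, a carbonic anhydrase, was at 999 and 817 CPM at P14, against 179 and 176 CPM at P8 (log2 change 2.34, SE 0.16, limma adjusted p = 1.66e-05). Gm525, a predicted gene on the list, had a log2 change of 3.27. While these 6 genes were higher, 3 others of the list were lower at P14. Otor, encoding otoraplin, was at 2068 and 1208 CPM at P14, against 5772 and 3836 CPM at P8 (log2 change -1.57, SE 0.27, limma adjusted p = 0.00565), and Pou3f4, a transcription factor of otic mesenchyme, was at 171 and 135 CPM at P14, against 347 and 278 CPM at P8 (log2 change -1.03, SE 0.25, limma adjusted p = 0.0345). Aqp1, a water channel, was at 200.1 and 191 CPM at P14, against 404 and 329 CPM at P8 (log2 change -0.90, SE 0.16, limma adjusted p = 0.00707). In all, 6 of 14 were called higher and 3 lower, a median of 0.15, with 6 higher and 2 lower calls whichever library was left out. Emilin2, Car3, Kcnk2, Cp and Tbx18 were not called, with log2 changes of 0.10, -0.50, 0.21, 0.09 and -0.29.

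**Figure D3:**
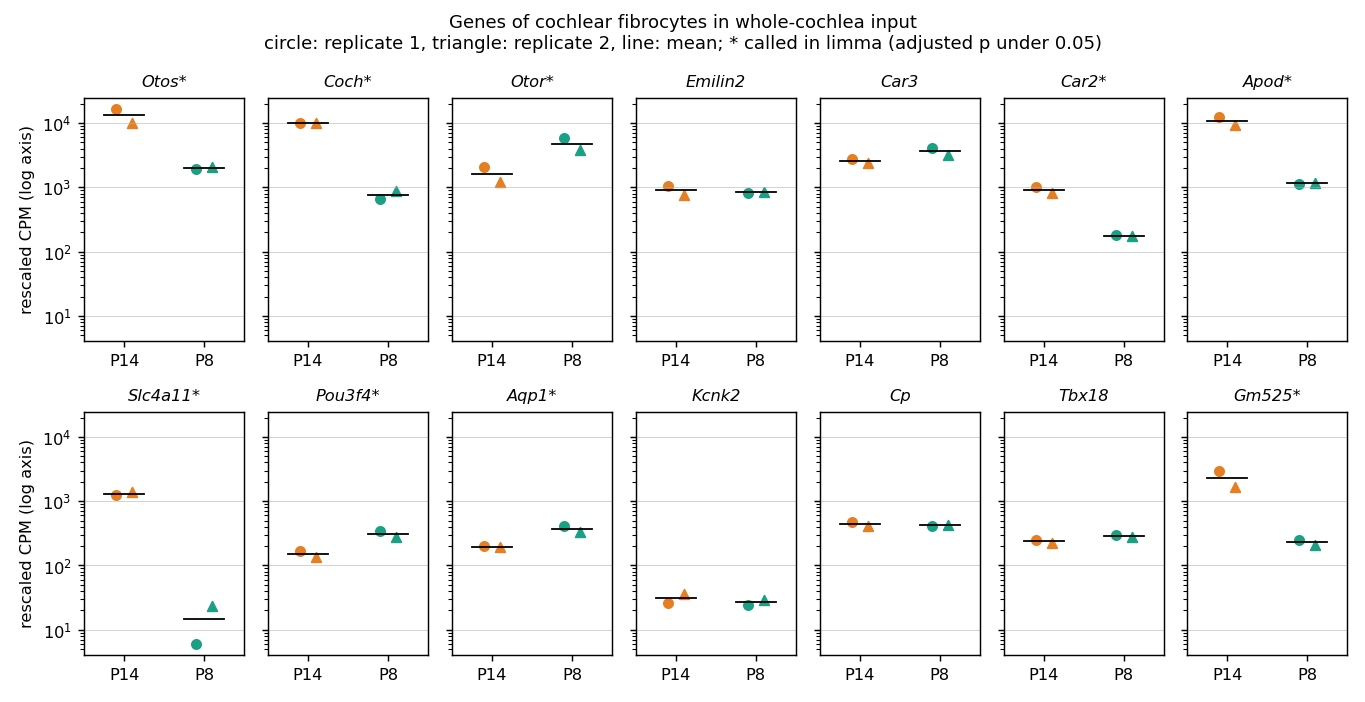
Rescaled CPM on a log axis of the 14 fibrocyte genes in the 2 P14 (left) and 2 P8 (right) input libraries, with circles for replicate 1, triangles for replicate 2 and a line at the mean; an asterisk marks the 9 genes called. Slc4a11, Coch, Apod, Otos, Car2 and Gm525 sit higher at P14 and Otor, Pou3f4 and Aqp1 lower.

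Some genes for potassium secretion and endolymph balance were higher at P14, with 7 of 16 called higher and none lower (median 0.84). The largest change was in Slc26a4, encoding pendrin, an anion exchanger of the outer sulcus and spindle cells, at 266 and 239 CPM at P14, against 50.2 and 27.8 CPM at P8 (log2 change 2.72, SE 0.26, limma adjusted p = 0.000154). Atp1b1, a subunit of the sodium-potassium pump, was at 3491 and 2744 CPM at P14, against 996 and 879 CPM at P8 (log2 change 1.72, SE 0.19, limma adjusted p = 0.000331). Kcnj10, a potassium channel of strial intermediate cells needed for the endocochlear potential, was at 437 and 468 CPM at P14, against 138 and 161 CPM at P8 (log2 change 1.59, SE 0.18, limma adjusted p = 0.000519). Those 3 held with each library left out. Slc12a2, the cotransporter that loads marginal cells with potassium, was at 2262 and 2413 CPM at P14, against 1139.5 and 1126 CPM at P8 (log2 change 1.04, SE 0.22, limma adjusted p = 0.0153), and Atp1b2, another pump subunit, was called too (log2 1.15). Lrp2, the endocytic receptor megalin of marginal cells, was at 955 and 1294 CPM at P14, against 381 and 545 CPM at P8 (log2 change 1.28, SE 0.25, limma adjusted p = 0.0106) and was not called without P8 input 1, at adjusted p up to 0.0731. The channel of marginal cells, Kcnq1 with Kcne1, did not pass, with log2 changes of 0.59 and 0.57. The higher calls numbered 5, 8, 6 and 5 without P14 input 1, P14 input 2, P8 input 1 and P8 input 2.

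Acid-base transporters contributed 5 of 18 called higher and none lower (median 0.56), 3 of which (Car2, Slc4a11 and Slc26a4) are given above. Slc4a10, a sodium-driven bicarbonate transporter, was at 395 and 489.9 CPM at P14, against 20.3 and 22.7 CPM at P8 (log2 change 4.30, SE 0.22, limma adjusted p = 2.33e-06), and its call held with each library left out. Car14, a membrane carbonic anhydrase, was at 485 and 382 CPM at P14, against 292 and 262 CPM at P8 (log2 change 0.63, SE 0.17, limma adjusted p = 0.0466). The related bicarbonate cotransporter gene Slc4a7 had a log2 change of -0.57 and was not called.

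Gap junction and supporting cell genes included 6 of 18 called higher and none lower (median 0.46). Gjb6, one of the connexins that link supporting cells and fibrocytes, was at 1629 and 1340.3 CPM at P14, against 367 and 367 CPM at P8 (log2 change 2.01, SE 0.17, limma adjusted p = 5.3e-05). Its partner Gjb2 was at 2399.7 and 2138 CPM at P14, against 1254 and 1142 CPM at P8 (log2 change 0.92, SE 0.18, limma adjusted p = 0.0115). S100a1, a calcium-binding protein, was at 2358 and 1714 CPM at P14, against 491 and 393 CPM at P8 (log2 change 2.19, SE 0.20, limma adjusted p = 0.000109). Kcnj16, a potassium channel subunit that pairs with Kcnj10, was at 308 and 299 CPM at P14, against 112 and 101 CPM at P8 (log2 change 1.5, SE 0.17, limma adjusted p = 0.000514). Gjb6, S100a1 and Kcnj16 kept the call with each library left out. Aqp4, a water channel of supporting cells and glia, was at 38.8 and 28.1 CPM at P14, against 7.70 and 15.5 CPM at P8 and lost its call without P14 input 1 or P8 input 1 (adjusted p 0.0401 to 0.203), and the sixth gene was Prox1, a transcription factor (log2 1.49). Sox2, Sox10, Jag1 and Hes5, genes of progenitors and immature supporting cells, did not pass, with log2 changes of -0.67, -0.39, -0.04 and -1.16. The higher calls numbered 3, 6, 4 and 5 without P14 input 1, P14 input 2, P8 input 1 and P8 input 2. Of 12 genes of Koelliker's organ, a transient epithelium beside the inner hair cells, 2 were called higher and none lower (median -0.40), with 2 higher and 4 lower at an unadjusted p under 0.05. Calb1, Fabp7, Lgr6 and Pdgfc had log2 changes of -1.55, -1.40, -1.39 and -1.26 and were not called. The called genes were Ptgds, the prostaglandin D synthase also made by meninges, at 19078 and 14677 CPM at P14, against 3389 and 2838 CPM at P8 (log2 change 2.43, SE 0.28, limma adjusted p = 0.000519), and Dkk3 (log2 0.77), which lost its call without P14 input 2 or P8 input 2 (adjusted p 0.0303 to 0.24).

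Melanocyte genes split. Intermediate cells of the stria are melanocytes, and 4 of 7 tested melanocyte genes were called higher and 1 lower (median 1.21). Kit, the receptor melanocytes need to survive, was at 74.9 and 107 CPM at P14, against 32.9 and 24.6 CPM at P8 (log2 change 1.62, SE 0.30, limma adjusted p = 0.00929). Slc45a2, a melanosome transporter, was at 100.4 and 69.8 CPM at P14, against 37.4 and 27.3 CPM at P8 (log2 change 1.36, SE 0.28, limma adjusted p = 0.0145). Pmel, which forms the fibrils on which melanin is laid down, was the exception, at 0.102 and 1.45 CPM at P14, against 15.8 and 16.0 CPM at P8 (log2 change -3.36, SE 0.79, limma adjusted p = 0.0276). Mlana and Dct were the other 2 higher genes (log2 1.39 and 1.21). The calls of Kit, Slc45a2, Mlana and Pmel rested on single libraries. Kit lost its call without P8 input 2, Slc45a2 without P14 input 1 or P8 input 2, and Mlana without P8 input 1 or P8 input 2. Pmel lost its call without P14 input 1, P8 input 1 or P8 input 2. The higher calls numbered 3, 4, 3 and 1 without P14 input 1, P14 input 2, P8 input 1 and P8 input 2.

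Many neuronal genes rose in the whole cochlea, with 16 of 25 spiral ganglion genes called higher and none lower. Their median log2 change was 2.52, against 0.03 over all genes. Kcna2, a potassium channel placed beside nodes of myelinated axons, was at 206 and 215 CPM at P14, against 19.9 and 11.2 CPM at P8 (log2 change 3.73, SE 0.24, limma adjusted p = 1.18e-05). Scn1a, a sodium channel, was at 38.8 and 42.4 CPM at P14, against 2.23 and 2.56 CPM at P8 (log2 change 3.62, SE 0.34, limma adjusted p = 0.00013). Syt2, the calcium sensor of fast transmitter release, was at 127 and 116 CPM at P14, against 6.64 and 11.03 CPM at P8 (log2 change 3.68, SE 0.27, limma adjusted p = 2.73e-05). Nefm, a neurofilament subunit that sets axon calibre, was at 535 and 394 CPM at P14, against 38.7 and 62.0 CPM at P8 (log2 change 3.20, SE 0.28, limma adjusted p = 7.93e-05). Those 4 calls held with each library left out. Snap25, Vamp1, Nefl and Nefh were called with log2 changes of 3.17, 2.72, 3.02 and 3.19. Syt1, a synaptotagmin of synaptic vesicles, did not pass (log2 0.19), nor did genes shared with young neurons, with Gap43 at 0.04, Tubb3 at 1.0, Stmn2 at 1.44 and Prph at 0.81. The higher calls numbered 11, 14, 14 and 17 without P14 input 1, P14 input 2, P8 input 1 and P8 input 2.

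Of 16 genes of axon growth and immature neurons only Stmn3, a tubulin-binding stathmin, was called higher, at 328 and 179 CPM at P14, against 55.5 and 99.4 CPM at P8 (log2 change 1.69, SE 0.34, limma adjusted p = 0.0135), and none lower (median -0.37); it lost its call without P14 input 1 or P8 input 1 (adjusted p 0.012 to 0.126). Dcx, Crmp1 and Sox4, genes of young neurons, had log2 changes of -0.95, -1.02 and -1.06 and were not called. Markers of brain were read beside these. The 19 brain genes summed to 749 and 947 CPM at P14, against 298 and 409.7 CPM at P8, with 4 called higher (Mobp, Neurod2, Slc17a7 and Grin1) and none lower. Slc17a7, a vesicular glutamate transporter of spiral ganglion and brain neurons, was at 157 and 159 CPM at P14, against 8.64 and 56.8 CPM at P8, and Neurod2, a forebrain and cerebellar transcription factor, at 5.70 and 6.28 CPM at P14, against 0 and 0.320 CPM at P8. Gfap, an astrocyte marker, and Gabra6, a cerebellar granule cell marker, had log2 changes of 2.07 and 1.66 and were not called. The part of brain RNA in the neuronal changes was not tested. Neurod2, Slc17a7 and Grin1 each lost their call without some library, at adjusted p up to 0.117.

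Most myelin genes were higher at P14, with 16 of 22 called higher and none lower (median 1.51). Mobp (chromosome 9, 120149707 to 120181484), a structural protein of central myelin, was at 83.2 and 72.5 CPM at P14, against 1.76 and 3.04 CPM at P8 (log2 change 4.56, SE 0.60, limma adjusted p = 0.00111). Mbp, the basic protein that compacts myelin, was at 1312 and 811 CPM at P14, against 199.9 and 292 CPM at P8 (log2 change 2.09, SE 0.33, limma adjusted p = 0.00325). Both held with each library left out. Pmp22, a major protein of peripheral myelin, was at 1076 and 487 CPM at P14, against 228 and 299.9 CPM at P8 (log2 change 1.47, SE 0.34, limma adjusted p = 0.0266), with P14 input 1 the highest library. Ncmap, a peripheral myelin protein, was at 205 and 81.3 CPM at P14, against 27.5 and 32.1 CPM at P8 and lost its call without P14 input 1, P8 input 1 or P8 input 2 (adjusted p 0.00489 to 0.089). The higher calls numbered 5, 14, 6 and 7 without P14 input 1, P14 input 2, P8 input 1 and P8 input 2. The central myelin gene Mog, made by oligodendrocytes and not by Schwann cells, did not pass (log2 1.46). Olig1 and Olig2, transcription factors of oligodendrocytes, were at 15.3 and 7.84 CPM at P14, against 0.540 and 2.08 CPM at P8 and, for Olig2, 4.13 and 4.75 CPM at P14, against 0.833 and 0 CPM at P8. They did not pass either (log2 2.46 and 2.0, limma adjusted p = 0.113 and 0.051). The part of brain RNA in the myelin changes was not tested.

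Cholesterol synthesis supplies myelin lipid, and 4 of its 16 genes were called higher and none lower (median 0.51). Hmgcs1, an early enzyme of the pathway, was at 392 and 304 CPM at P14, against 88.6 and 91.0 CPM at P8 (log2 change 1.93, SE 0.18, limma adjusted p = 0.000115) and held with each library left out. Sqle, an enzyme of the pathway, and Insig1, which restrains it, were called with log2 changes of 1.01 and 1.25, and the call was lost without P14 input 1, P8 input 1 or P8 input 2 for Sqle and without P14 input 2, P8 input 1 or P8 input 2 for Insig1, at adjusted p up to 0.216. The 4 higher calls numbered 2, 4, 2 and 1 without P14 input 1, P14 input 2, P8 input 1 and P8 input 2.

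Outer hair cell genes showed no call in the whole cochlea. Of 14 tested, limma called 0 higher and 0 lower (median -0.38); at an unadjusted p under 0.05 there were 0 higher and 2 lower, edgeR called 0 higher and 0 lower and DESeq2 0 higher and 1 lower. Ocm, encoding the calcium buffer oncomodulin, was at 195 and 125 CPM at P14, against 150.3 and 138 CPM at P8, with overlapping ages (log2 change 0.12, SE 0.35, limma adjusted p = 0.899). Slc26a5, encoding the motor protein prestin from whose locus Cre was made, was at 5.01 and 5.97 CPM at P14, against 4.91 and 5.28 CPM at P8 (log2 change 0.09, SE 0.91, limma adjusted p = 0.978). Lbh, a regulator found in outer hair cells, was at 112 and 102 CPM at P14, against 182 and 158 CPM at P8 (log2 change -0.66, SE 0.20, limma adjusted p = 0.0785). At this level a change of Slc26a5 within its large SE was not detectable. The sign of the small Ocm change depended on scaling, at -0.08 with quantile normalization. Rpl22, the gene of the tagged ribosomal protein, was at 149 and 114 CPM at P14, against 125 and 98.2 CPM at P8 (log2 change 0.23, SE 0.20, limma adjusted p = 0.568).

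Among 19 genes shared by hair cells 2 were called higher and none lower (median 0.21). Pvalb, a calcium buffer of hair cells and neurons, was at 345 and 129 CPM at P14, against 31.6 and 73.1 CPM at P8 (log2 change 2.11, SE 0.47, limma adjusted p = 0.0217), and lost its call without P14 input 1 or P8 input 1 (adjusted p 0.011 to 0.178). Gpx2, a glutathione peroxidase, was at 71.3 and 85.7 CPM at P14, against 10.4 and 5.76 CPM at P8 (log2 change 3.18, SE 0.32, limma adjusted p = 0.000194). Myo7a, Otof and Espn, which serve the hair bundle and the synapse, had log2 changes of -0.03, -0.05 and -0.12 and were not called. Of 9 inner hair cell genes 2 were called higher and none lower (median 0.11), whichever library was left out. Calb2, the calcium buffer calretinin of inner hair cells and spiral ganglion neurons, was at 697 and 414 CPM at P14, against 40.9 and 108 CPM at P8 (log2 change 2.99, SE 0.40, limma adjusted p = 0.00137). Slc7a14, a transporter-like protein, was at 37.8 and 31.1 CPM at P14, against 4.73 and 1.76 CPM at P8 (log2 change 3.15, SE 0.35, limma adjusted p = 0.000417). Slc17a8, the vesicular glutamate transporter of inner hair cells, had a log2 change of 0.97 and was not called.

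Part of the matrix genes of connective tissue were lower at P14. Of 27 fibrillar collagen and matrix assembly genes 12 were called lower and none higher, and the median log2 change was -1.26. The list's sum overlapped between the ages, at 31771 and 21616 CPM at P14, against 23588 and 24441 CPM at P8, and Sparc, a matrix glycoprotein, made up much of it, at 24469 and 16184 CPM at P14, against 11378 and 10661 CPM at P8. Col3a1, a fibril collagen of soft tissue, was at 384 and 271 CPM at P14, against 1082 and 1215 CPM at P8 (log2 change -1.83, SE 0.33, limma adjusted p = 0.0083). Thbs2, a matricellular protein, was at 9.45 and 7.89 CPM at P14, against 45.6 and 57.1 CPM at P8 (log2 change -2.43, SE 0.49, limma adjusted p = 0.0126). Both ages were well apart in each of these genes, and each call was lost only without P8 input 2, at adjusted p up to 0.0877. Col5a2, a fibril collagen chain, was at 76.2 and 87.6 CPM at P14, against 227 and 351 CPM at P8. Fbn1, a microfibril protein, was at 30.8 and 21.0 CPM at P14, against 80.2 and 103 CPM at P8. Fbn1 lost its call with any 1 library out, and Col5a2 without P14 input 1, P14 input 2 or P8 input 2 (adjusted p 0.0599 to 0.164 and 0.0456 to 0.175). Fn1, Lum, Bgn and Serpinh1, a fibronectin, 2 proteoglycans and a collagen chaperone, were called with log2 changes of -1.49, -1.45, -1.23 and -1.35. Sparc, Dcn, Lox and Loxl2 had log2 changes above 0, at 0.85, 0.75, 0.72 and 0.51, and were not called. The lower calls numbered 9, 9, 10 and 5 without P14 input 1, P14 input 2, P8 input 1 and P8 input 2.

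Bone and cartilage genes were read beside the matrix genes. Of 17 bone genes 1 was called higher and 1 lower (median -1.03). Ibsp, a bone matrix sialoprotein, was at 483 and 232 CPM at P14, against 1016 and 1245 CPM at P8 (log2 change -1.75, SE 0.38, limma adjusted p = 0.0186), and lost its call without P14 input 2, P8 input 1 or P8 input 2. Spp1, encoding osteopontin, which is made in bone and also in the cochlea, was at 2804 and 3145 CPM at P14, against 409 and 460.1 CPM at P8 (log2 change 2.77, SE 0.17, limma adjusted p = 1.18e-05). Of 15 cartilage genes 4 were called lower (Col2a1, Col9a1, Snorc and Matn4) and 2 higher (Ucma and Hapln1). Matn4, a matrix filament protein, was at 28.4 and 19.5 CPM at P14, against 188 and 145 CPM at P8 (log2 change -2.76, SE 0.36, limma adjusted p = 0.00116). Hapln1, a link protein, went the other way, at 18.8 and 19.7 CPM at P14, against 2.14 and 7.99 CPM at P8 (log2 change 1.93, SE 0.52, limma adjusted p = 0.0461). Hapln1 lost its call without P14 input 1, P14 input 2 or P8 input 1. Of 8 osteoclast genes 1 was called in each direction (median -1.06), with 1 higher and 4 lower at an unadjusted p under 0.05. The acid phosphatase gene Acp5 was lower at 20.3 and 21.0 CPM at P14, against 86.1 and 99.3 CPM at P8 (log2 change -2.11, SE 0.42, limma adjusted p = 0.0123). The receptor gene Oscar was higher at 4.47 and 1.25 CPM at P14, against 0.0225 and 0 CPM at P8. Mmp9, Atp6v0d2 and Tnfrsf11a had log2 changes of -1.86, -1.73 and -1.46 and were not called. Acp5 lost its call without P8 input 2. Oscar lost its call without P8 input 1 or P8 input 2, and without either P14 library it did not pass the filter on low values. The part of bone, cartilage and osteoclast genes in the matrix changes was not tested.

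Some growth genes that are active before and around birth were lower at P14, with 6 of 16 called lower and none higher (median -0.72). Igf2, the fetal insulin-like growth factor, was at 447 and 199.8 CPM at P14, against 1098 and 904 CPM at P8 (log2 change -1.73, SE 0.29, limma adjusted p = 0.00558). H19, the noncoding RNA beside it, was at 339 and 68.5 CPM at P14, against 1129.9 and 826 CPM at P8 (log2 change -2.65, SE 0.55, limma adjusted p = 0.0155). Igf2bp1, an RNA-binding protein of fetal tissue, was at 0.443 and 0.104 CPM at P14, against 3.87 and 4.32 CPM at P8 (log2 change -2.01, SE 0.40, limma adjusted p = 0.0124). Grb10, an adaptor that restrains growth signals, was at 39.2 and 31.8 CPM at P14, against 129.9 and 83.9 CPM at P8 (log2 change -1.54, SE 0.30, limma adjusted p = 0.0113). Mest, Peg3, Ndn, Igf1 and Igf1r had log2 changes of -0.34, -0.47, -0.13, -0.26 and 0.58 and were not called. Igf2 held with each library left out, Igf2bp1 was called in the 2 such fits in which it passed the filter on low values, H19 lost its call without P8 input 1 or P8 input 2 and Grb10 without P8 input 1, and the lower calls numbered 6, 6, 1 and 3 without P14 input 1, P14 input 2, P8 input 1 and P8 input 2. Of 27 cell cycle genes limma called 0 higher and 0 lower (median -0.25), with 1 higher and 2 lower at an unadjusted p under 0.05, 0 higher and 0 lower in edgeR and 0 higher and 0 lower in DESeq2. Mki67, a marker of dividing cells, was at 19.1 and 28.4 CPM at P14, against 7.85 and 21.6 CPM at P8, and Ccnd1, a cyclin, at 73.3 and 30.7 CPM at P14, against 68.8 and 46.5 CPM at P8.

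Signalling genes changed in part. Dio2, the deiodinase that activates thyroid hormone, was at 125 and 127 CPM at P14, against 702 and 799.6 CPM at P8 (log2 change -2.57, SE 0.22, limma adjusted p = 7.04e-05), and held with each library left out. Klf9, a transcription factor induced by thyroid hormone, was at 377 and 202 CPM at P14, against 130.3 and 109.5 CPM at P8 (log2 change 1.20, SE 0.25, limma adjusted p = 0.0146), and lost its call without P14 input 1 or P8 input 2 (adjusted p 0.00207 to 0.108). Those were the calls among 12 thyroid hormone genes (median -0.55), and the receptors Thra and Thrb had log2 changes of -0.08 and -0.90 and were not called. Of 22 Wnt genes 1 was called higher (Dkk3) and 4 lower (median -0.79). The 4 were Tcf7, a transcription factor, at 13.8 and 11.1 CPM at P14, against 37.6 and 57.1 CPM at P8 (log2 change -1.82, SE 0.40, limma adjusted p = 0.019), Nkd1, a feedback inhibitor, at 45.4 and 45.9 CPM at P14, against 126 and 106 CPM at P8 (log2 change -1.32, SE 0.25, limma adjusted p = 0.0094), and Rnf43 and Wif1, further inhibitors (log2 -1.67 and -1.27). Each lost its call without at least 1 library, and the lower calls numbered 2, 3, 1 and 1 without P14 input 1, P14 input 2, P8 input 1 and P8 input 2. Of 17 Notch genes only the receptor gene Notch2 was called, lower at 86.3 and 89.0 CPM at P14, against 137 and 220.1 CPM at P8 (log2 change -0.98, SE 0.26, limma adjusted p = 0.0436); it lost its call without P14 input 1, P14 input 2 or P8 input 2 and had a log2 change of 0.24 with CPM as deposited. Of 16 immediate early genes only Dusp1, a phosphatase of MAP kinases, was called, higher at 52.8 and 60.5 CPM at P14, against 12.7 and 13.9 CPM at P8 (log2 change 2.01, SE 0.23, limma adjusted p = 0.000453), while Fos, Jun and Egr1, the classic stress-induced genes, had log2 changes of -0.14, 0.43 and -0.07 and were not called.

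Some respiration genes were higher. Of 22 nuclear genes of the respiratory chain 8 were called higher and none lower (median 0.67). Uqcrc1 and Cox6a2 were at 0 in all 4 libraries. Cox8b, a cytochrome oxidase subunit of heart and muscle, was at 204 and 129 CPM at P14, against 44.1 and 20.3 CPM at P8 (log2 change 2.40, SE 0.33, limma adjusted p = 0.00147), and Cox4i1, a core regulatory subunit, at 1511 and 1057 CPM at P14, against 577 and 561 CPM at P8 (log2 change 1.15, SE 0.19, limma adjusted p = 0.0049). Both, and Cox7a1 (log2 1.42), held with each library left out, while the calls numbered 4, 13, 5 and 3 without P14 input 1, P14 input 2, P8 input 1 and P8 input 2. Of 9 mitochondrially encoded mRNAs tested 3 were called higher and none lower. In all 4 libraries mt-Co2, mt-Co3, mt-Atp6, mt-Atp8 and mt-Nd4l were at 0. Whether reads of the genes at 0 were lost in mapping or counting was not tested. Mt-Nd2 was at 4224 and 3362 CPM at P14, against 1711 and 1772 CPM at P8 (log2 change 1.11, SE 0.21, limma adjusted p = 0.0093), and mt-Nd1 and mt-Nd4 had log2 changes of 1.06 and 1.08. Mt-Nd1 lost its call without P14 input 1, P8 input 1 or P8 input 2 and mt-Nd4 without P14 input 1 or P8 input 1, while mt-Nd5 and mt-Nd6 were not called (log2 -0.07 and -0.63). Of 22 ribosomal protein genes limma called 0 higher and 0 lower, with 0 higher and 3 lower at an unadjusted p under 0.05, 0 higher and 0 lower in edgeR and 0 higher and 1 lower in DESeq2. Rpl8 was at 781 and 464 CPM at P14, against 677 and 542 CPM at P8, and Rps3 at 748 and 513 CPM at P14, against 829 and 578 CPM at P8.

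Among blood and immune lists, calls were most frequent in that of neutrophils. Over all genes tested, 4.89% were called higher. Of 16 neutrophil and myeloid precursor genes 6 were called higher and none lower (median 1.84), and their sum was 199 and 232 CPM at P14, against 13.0 and 27.7 CPM at P8. S100a8 and S100a9, calcium-binding alarmins of neutrophils, were at 44.0 and 55.0 CPM at P14, against 1.37 and 3.04 CPM at P8 (log2 change 4.02, SE 0.46, limma adjusted p = 0.000513) and at 46.9 and 48.0 CPM at P14, against 3.85 and 3.20 CPM at P8 (log2 change 3.42, SE 0.48, limma adjusted p = 0.00174). Ngp, a neutrophil granule protein, was at 18.0 and 45.3 CPM at P14, against 1.89 and 0.959 CPM at P8 (log2 change 3.64, SE 0.59, limma adjusted p = 0.00405). Those 3 held with each library left out, and Camp, a granule antimicrobial peptide, was at 14.7 and 18.8 CPM at P14, against 0.698 and 0.160 CPM at P8 (log2 change 3.65, SE 0.67, limma adjusted p = 0.0086) and lost its call without P8 input 2. The calls numbered 4, 6, 4 and 3 without P14 input 1, P14 input 2, P8 input 1 and P8 input 2. Among 14 erythroid genes only Tfrc, the transferrin receptor that many cells use, was called, higher at 197 and 191 CPM at P14, against 58.1 and 81.9 CPM at P8 (log2 change 1.48, SE 0.19, limma adjusted p = 0.00106). The haemoglobin gene Hbb-bs had a log2 change of 1.05 and was not called. The erythroid list still had a median of 1.13, against 0.03 over all genes. Its sum was 2343 and 1302 CPM at P14, against 728 and 830 CPM at P8. Both P14 libraries lay above both P8 libraries for 10 of its genes, and below both for 0, against 23.9% and 20.1% of all genes. Of 13 lymphocyte genes Vpreb3, Pax5 and Igkc, genes of B cells, were called higher and none lower (median 0.71). Vpreb3 was at 24.6 and 12.4 CPM at P14, against 1.13 and 0.160 CPM at P8. Pax5 and Igkc were near 0 at P8, at 0.990 and 0 CPM and at 0.0225 and 0 CPM. All 3 lost the call without P14 input 1 or P8 input 2. Both P14 libraries lay above both P8 libraries for 6 lymphocyte genes. They lay below both for 2, Rag1 and Lck, which were not called (log2 -1.08 and -1.03). Of 16 macrophage genes only the lysozyme gene Lyz2 was called, higher at 56.9 and 40.3 CPM at P14, against 14.2 and 2.24 CPM at P8 (log2 change 2.80, SE 0.55, limma adjusted p = 0.0119), lost without P14 input 1. The macrophage list had a median of -0.25. Both P14 libraries lay above both P8 libraries for 3 of its genes and below both for 6. Mrc1, Cd68 and Csf1r had log2 changes of -1.25, -1.15 and -0.60 and were not called. The interferon-inducible gene Ifi27 was at 283 and 268 CPM at P14, against 143 and 125 CPM at P8 (log2 change 1.04, SE 0.14, limma adjusted p = 0.00139), 1 of 3 called higher among 15, and the class I histocompatibility genes H2-D1 and H2-K1 had log2 changes of 1.32 and 0.99, 2 of 3 called higher among 14 antigen presentation genes. H2-D1 lost its call without P14 input 1 and H2-K1 without P14 input 1 or P8 input 2, and without P14 input 1 none of the antigen presentation genes was called.

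Markers of neighbouring tissues were mixed, beside 4.89% of all genes tested called higher and 2.11% called lower. Bpifa1, a secreted protein of airway and middle ear epithelium, was at 101 and 129 CPM at P14, against 2.66 and 10.7 CPM at P8 (log2 change 4.14, SE 1.11, limma adjusted p = 0.0469), and Foxj1, the regulator of motile cilia, at 18.4 and 7.71 CPM at P14, against 1.17 and 0.160 CPM at P8 (log2 change 3.03, SE 0.63, limma adjusted p = 0.0152); they were the calls among 12 middle ear genes, whose sum was 446 and 399.7 CPM at P14, against 393 and 295 CPM at P8. Bpifa1 lost its call with any 1 library out (adjusted p 0.119 to 0.215) and Foxj1 without P14 input 1 or P8 input 2. Among 8 vestibular and otoconia genes Oc90, the main otoconial protein, was lower, at 41.8 and 23.5 CPM at P14, against 183 and 203 CPM at P8 (log2 change -2.58, SE 0.58, limma adjusted p = 0.022), and Otop1, a proton channel needed for otoconia, was higher, at 26.4 and 11.8 CPM at P14, against 1.15 and 0 CPM at P8 (log2 change 3.68, SE 0.68, limma adjusted p = 0.0085), as was Slc26a4; Oc90 lost its call without P8 input 2 and Otop1 without P14 input 1 or P8 input 2. Skeletal muscle genes summed to 45.8 and 29.6 CPM at P14, against 16.5 and 23.7 CPM at P8, with 2 of 16 called higher and none lower (median -0.10). The myosin gene Myh3 was at 2.80 and 2.62 CPM at P14, against 0.0225 and 0 CPM at P8 (log2 1.87). Myl1, the other, was at 4.02 and 6.28 CPM at P14, against 0 and 0.160 CPM at P8 (log2 2.49). Both P14 libraries lay above both P8 libraries for 5 muscle genes and below both for 1. Myh8, Myh4 and Actn3 had log2 changes of -1.22, -0.92 and -1.46 and were not called. Myog and Myod1 did not pass the filter on low values. Of 18 endothelial and pericyte genes the receptor gene Flt1 and the tight junction gene Cldn5 were called higher (log2 1.18 and 0.89) and none lower, and the list's median was 0.08. Both P14 libraries lay above both P8 libraries for 7 of these genes. They lay below both for 2, Abcc9 and Pdgfrb, which were not called (log2 -0.96 and -0.55). Keratinocyte genes had 1 of 8 called, Trp63 lower (log2 -2.0). Of 4 adipocyte genes limma called 0 higher and 0 lower, with 1 higher and 0 lower at an unadjusted p under 0.05, 0 higher and 0 lower in edgeR and 0 higher and 0 lower in DESeq2. Flt1, Cldn5, Trp63, Myh3 and Myl1 each lost their call without at least 1 library.

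Other RNA classes were checked for signs of library quality. Of 7 nuclear and untranslated RNAs 2 were called higher, Neat1 at 128 and 494 CPM at P14, against 36.9 and 65.4 CPM at P8 (log2 change 2.33, SE 0.49, limma adjusted p = 0.0155) and Snhg11 (log2 2.38). Neat1 lost its call without P8 input 1 or P8 input 2, and Snhg11 without P14 input 1 or P8 input 1 (adjusted p 0.0023 to 0.101 and 0.0247 to 0.074). Of 7 replication-dependent histone genes 3 were called higher and none lower, and Hist1h1c, a linker histone, was at 146 and 147 CPM at P14, against 30.2 and 62.3 CPM at P8 (log2 change 1.73, SE 0.26, limma adjusted p = 0.00244). Short ribosomal-type RNAs set P8 input 2 apart: Lars2, a tRNA synthetase gene that overlaps such a sequence, was at 4798 and 1723 CPM at P14, against 1523 and 223226 CPM at P8, and mt-Rnr2 at 4498 and 2618 CPM at P14, against 1053 and 40563 CPM at P8. None of the 8 of them was called in limma, with 0 higher and 0 lower at an unadjusted p under 0.05, 0 higher and 0 lower in edgeR and 0 higher and 6 lower in DESeq2. Without P8 input 1 all 8 were called lower.

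**Figure D4:**
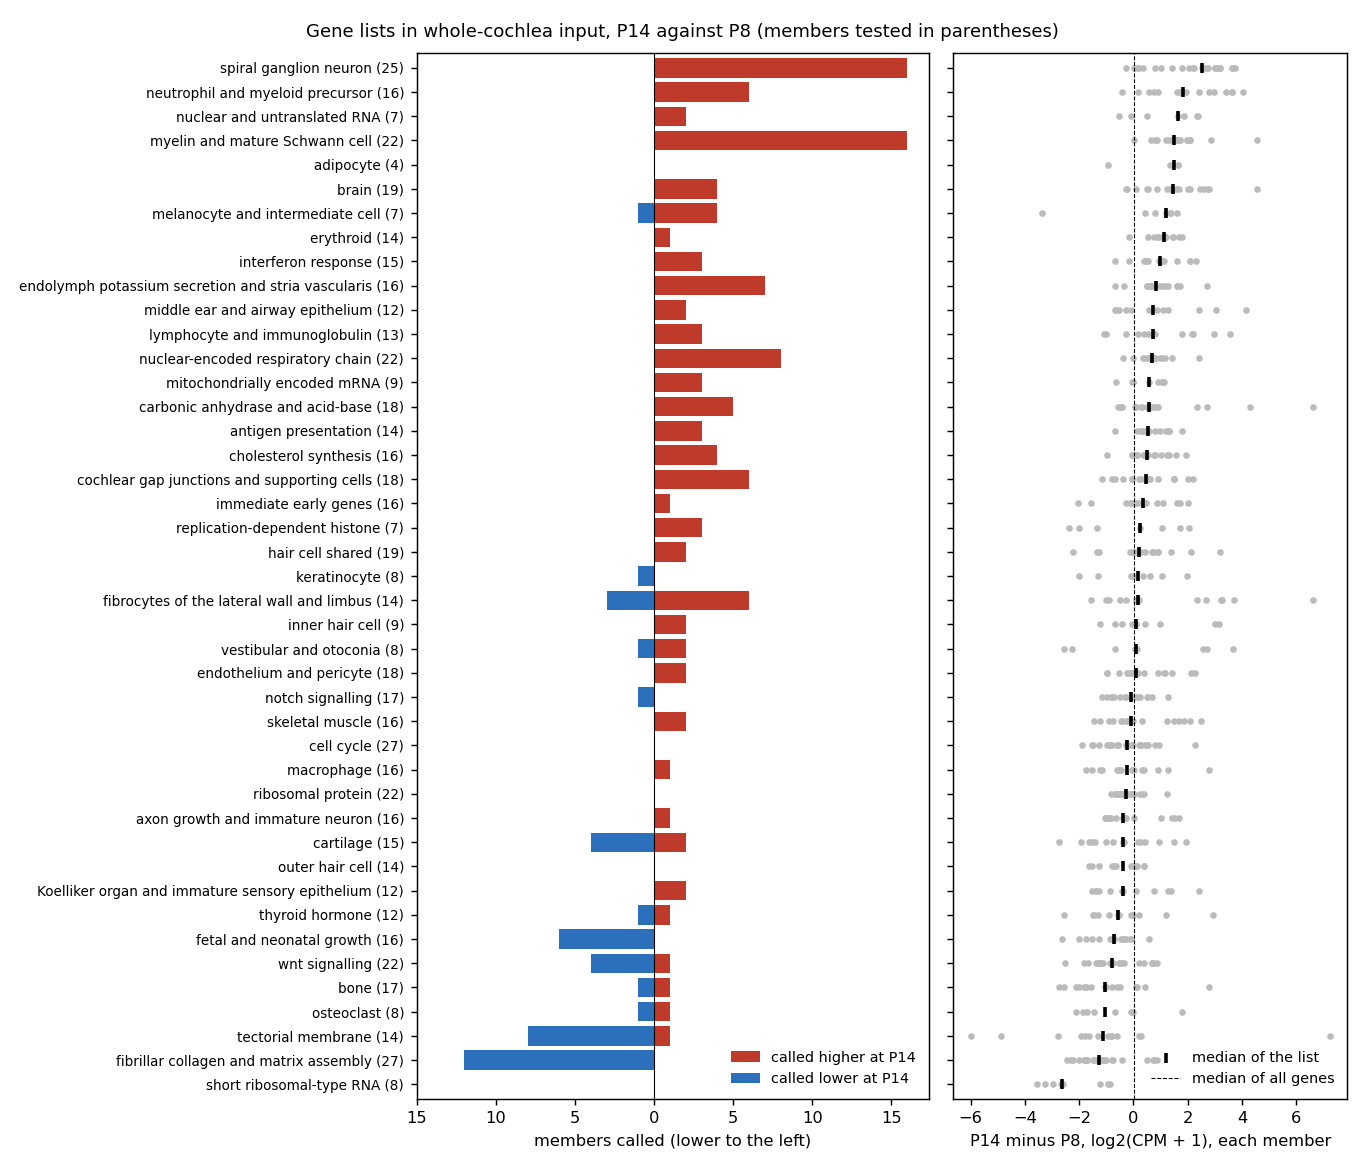
For 43 gene lists, the number of members called higher (right, red) or lower (left, blue) at P14, and beside it the log2(CPM + 1) difference, P14 minus P8, of each member (grey) with the list's median (black bar) and the median of all genes (dashed line). Spiral ganglion and myelin genes have 16 higher calls each, and fibrillar collagen genes 12 lower calls; outer hair cell, cell cycle, ribosomal protein, adipocyte and short ribosomal-type lists have none.

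Some of the largest changes lay outside these groups. Ppp1r1a, an inhibitor of a protein phosphatase, was at 265 and 186 CPM at P14, against 17.0 and 5.76 CPM at P8 (log2 change 4.34, SE 0.36, limma adjusted p = 5.03e-05). Etnppl, an enzyme of ethanolamine metabolism, was at 209 and 316 CPM at P14, against 27.9 and 12.0 CPM at P8 (log2 change 3.73, SE 0.32, limma adjusted p = 6.15e-05). Ddn, a protein of dendrites and of kidney podocytes, was at 53.7 and 42.7 CPM at P14, against 1.58 and 4.80 CPM at P8 (log2 change 3.66, SE 0.54, limma adjusted p = 0.00244). The 3 calls held with each library left out, with the ages far apart. Among the 15 largest decreases, Adamts12, a secreted metalloproteinase, was at 0.818 and 3.19 CPM at P14, against 45.3 and 90.5 CPM at P8 (log2 change -4.56, SE 0.80, limma adjusted p = 0.0064). Nid2, a basement membrane protein, was at 14.3 and 13.8 CPM at P14, against 153 and 147 CPM at P8 (log2 change -3.33, SE 0.72, limma adjusted p = 0.0183). Col26a1, a collagen-like matrix protein, was at 24.6 and 9.73 CPM at P14, against 204 and 173 CPM at P8 (log2 change -3.51, SE 0.68, limma adjusted p = 0.011). Gdf10, a growth factor of the bone morphogenetic family, was at 10.4 and 19.2 CPM at P14, against 142 and 142 CPM at P8 (log2 change -3.24, SE 0.62, limma adjusted p = 0.00987). Nell1, Clec3a, Rnf144a, Sdk2, Fam208b, Rxfp3, Timp1 and Ip6k2 completed that group, with log2 changes of -3.46, -3.30, -3.24, -3.18, -3.18, -3.19, -3.60 and -3.76. Rnf144a, Sdk2, Clec3a and Fam208b were over 10-fold lower in P14 input 1 than in P14 input 2, at 0.818 against 12.0 CPM for Rnf144a. Of these 12 genes none kept the call with every library left out, and Rxfp3, Timp1 and Ip6k2 lost it with any 1. Of the 119 named genes called, 40 of 82 higher and 6 of 37 lower kept the call in all 4 cases.

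Values at older ages show where each gene stood after P14. The tectorins stayed low in the 7 input libraries of P28 to 10 weeks: Tecta was at 0.146 to 1.49 CPM (median 0.589) and Tectb at 2.50 to 18.8 CPM (median 4.19). Ceacam16 was at 452 to 994 CPM (median 507), with each of these libraries below both P14 libraries. Slc4a11 was at 1923 to 2727 CPM (median 2358), with every older library above both P14 libraries. Coch, at 8737 to 12772 CPM (median 10712), Slc26a4, at 177 to 347 CPM (median 264), and Kcna2, at 239.8 to 356 CPM (median 285), spanned or lay above their P14 values. Col2a1, at 56.0 to 503 CPM (median 101), Col9a1, at 27.9 to 131 CPM (median 31.7), and Dio2, at 25.2 to 74.4 CPM (median 36.0), lay below both P14 libraries in every older library. Igf2, at 117 to 262 CPM (median 131), overlapped the lower P14 library. Oc90 was at 0 to 0.274 CPM (median 0). These later differences were not tested here.

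**Figure D5:**
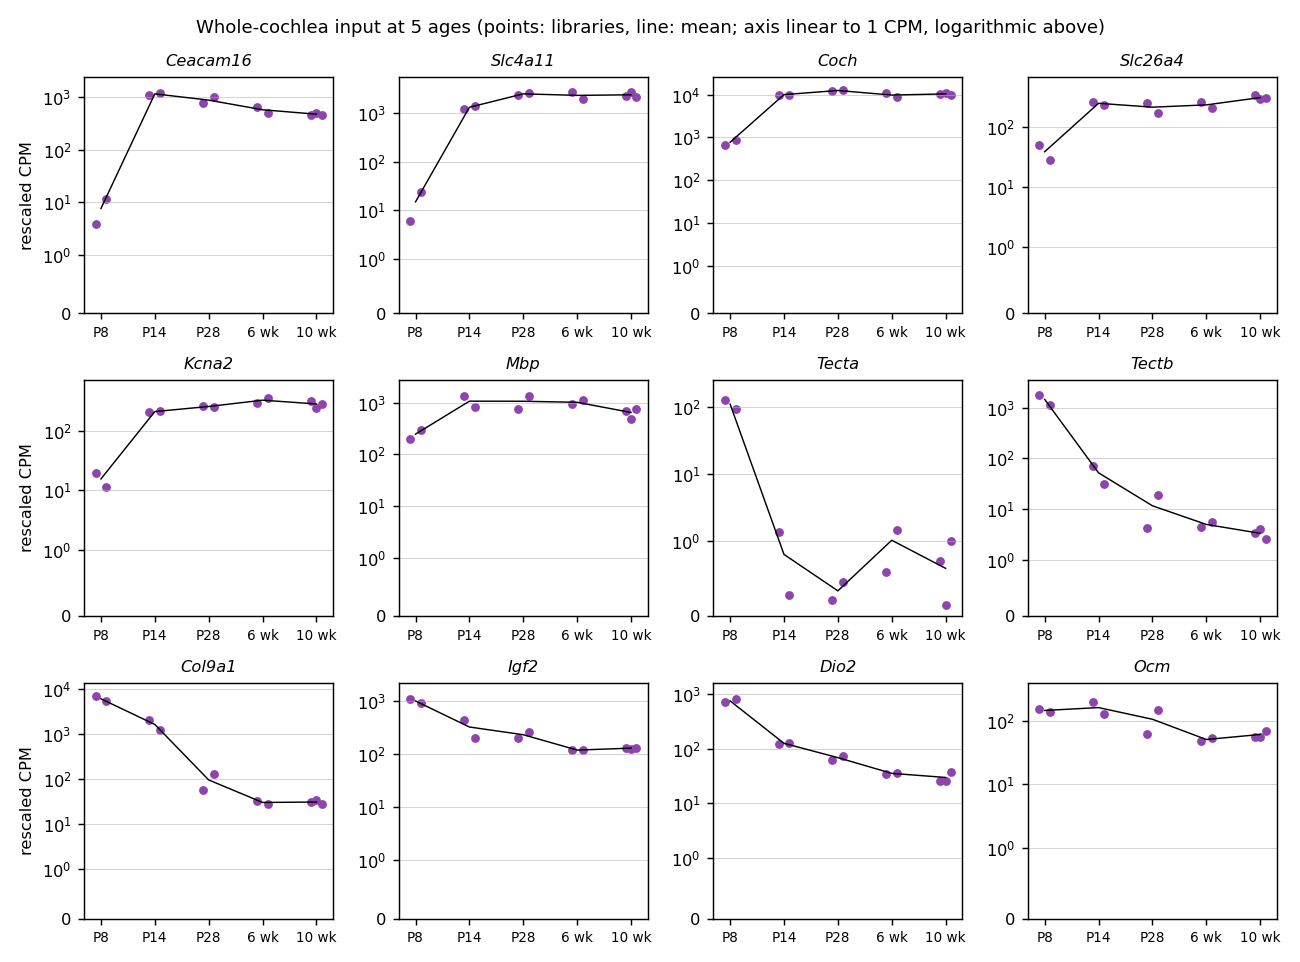
Rescaled CPM of 12 genes in whole-cochlea input by age (P8, P14, P28, then 6 and 10 weeks), with points for libraries and a line through the means; axes are linear to 1 CPM and logarithmic above. Ceacam16, Slc4a11, Coch, Slc26a4, Kcna2 and Mbp are high from P14 on, Tecta, Tectb, Col9a1, Igf2 and Dio2 are lower at P14 than at P8, and the P14 and P8 values of Ocm overlap.

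The pulldown of tagged ribosomes from the same ages was the most similar comparison, and input and pulldown libraries that share a label may come from the same cochleae. Ceacam16 was at 382 and 474 CPM at P14, against 9.12 and 2.08 CPM at P8 in the pulldown, a log2 change of 6.25 beside 7.23 in input. Tectb was at 98.1 and 13.9 CPM at P14, against 903 and 877 CPM at P8 in the pulldown, -4.54 beside -4.87. Log2 differences in the pulldown were 3.00 for Coch, 5.96 for Slc4a11, 1.78 for Mobp and 2.97 for Kcna2, beside 3.71, 6.63, 4.56 and 3.73 in input. Of the 864 genes called higher in input, 548 (63.4%) had both P14 pulldown libraries above both P8 pulldown libraries, against 22.3% of all genes tested, and 42 had them the other way round. Of the 372 called lower, 204 (54.8%) had both below, against 19.8% of all genes, and 9 the other way round. Where input and pulldown share cochleae, these percentages are not independent of the input calls. The difference between the fractions was tested for 20758 genes in all 22 libraries, with no pairing of input and pulldown. It was called for 1 gene (0.00482%), Ubtf, with 1996 genes at an unadjusted p under 0.05; leaving out 1 library gave 1 to 920 calls, the most without P14 pulldown replicate 2. In simulated libraries this test recovered 2 of 100 differences of 4-fold among 19637 genes, so most differences of that size would not be called.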

How the data were processed

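RNA-seq values were used as the authors deposited them, in CPM (reads per 1000000 reads of the library) for 49671 genes and 5 entries that name no gene. Per the submitters' processing notes, TopHat and GRCm38 were used; for the counting tool and its strand setting, nothing is given in the sources used here. CPM was recomputed over genes without Gm42418 and scaled by TMM factors. With a pseudocount of 1, log2(CPM + 1) was fitted in limma 3.58.1 (R 4.3.3) over the 11 input libraries in 5 age groups, for genes at 1 CPM or more in at least 2 libraries, with Benjamini-Hochberg adjustment over all genes tested and calls at an adjusted p under 0.05. The change in input was set against that in the pulldown in 1 fit of all 22 libraries in 10 groups. Whole reads were recovered from the deposited CPM for 100% of values, within 0.01 of a read, and edgeR 4.0.16's quasi-likelihood test on them called 1006 genes (757 higher, 249 lower). DESeq2 1.42.0 was a further alternative.

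Entries naming no gene (reads outside features, not uniquely placed or ambiguous) stayed out of all totals. Genes were named by rule: the 15 largest called changes each way that reached a mean of 5 CPM at the higher age and had no overlap between ages, up to 4 called members of each of 43 lists (or 2 members where none was called), and 6 fixed genes. Further list members are named to fill out a list and were chosen after their values were seen; a few called or listed genes are not reported here. The members and lists were chosen with earlier results of these data known. Counting depth was 8199831 to 38785388 gene reads per library. On simulated counts for 17001 genes the test of P14 against P8 recovered 10% of 2-fold and 52% of 4-fold changes.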

Additional observations from a re-analysis of the deposited data

Results flagged for a closer look

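Ubtf, encoding a transcription factor of ribosomal RNA genes (ENSMUSG00000020923), was called as differing between the fractions. In input it was at 167 and 149 CPM at P14, against 176 and 141 CPM at P8, and in the pulldown at 185 and 123 CPM at P14, against 2591 and 1514 CPM at P8. The pulldown at P8 was many-fold above the other 6 values. The change in input minus the change in the pulldown was 3.71 on the log2(CPM + 1) scale (SE 0.47, limma adjusted p = 0.00195 over 20758 genes). Groups of 2 or 3 libraries were too small to test for a single outlying library.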

How the results depend on the processing

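The 1236 calls became 732 (569 higher, 163 lower) with no scaling beyond Gm42418, 83 (80 and 3) with CPM as deposited, 532 (418 and 114) with array quality weights, 2243 (1350 and 893) in DESeq2, 391 (311 and 80) with all 22 libraries in the fit and 757 (466 and 291) with the 4 libraries alone. With the replicate number as a block there were 653 (499 and 154), and 32 named calls were lost under the block. Between input groups of different ages, the correlation of replicate differences ran from -0.03 to 0.11. It was not computed between input and pulldown libraries. Leaving out 1 library gave 507 to 2178 calls, 357 to 1331 higher and 108 to 847 lower; the lone library left at an age was then assumed to vary like the other groups. Quantile normalization, other size factors, a pseudocount of 0.25, no filter, a minimum of 5 CPM, leaving out mitochondrial and haemoglobin genes, and edgeR kept the count within 1.5 times. The difference between fractions was called for 20 genes with no filter, 2 at a minimum of 5 CPM, 385 in DESeq2 and 1 to 920 with 1 library left out: 920 without P14 pulldown replicate 2, 51 without P8 pulldown replicate 1, 48 without P8 input 1 and 13 without P14 input 2. The causes were not tested.

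Log2 changes that turned sign were small or uncalled except that of Notch2. With CPM as deposited they were 0.87 for Ccnd1, 0.55 for Lbh, 0.24 for Notch2, 1.23 for Rpl8, 1.08 for Rps3 and 0.32 for mt-Rnr2. Rpl8 was at 0.050 with no further scaling, 0.040 with no filter, 0.029 in edgeR and 0.024 with all 22 libraries, and Ocm at -0.083 with quantile normalization. With 1 library left out, changes spanned -0.86 to 0.36 for Ccnd1, -6.29 to 0.86 for Lars2, -0.20 to 0.42 for Ocm, -0.39 to 0.35 for Rpl8, -0.47 to 0.10 for Rps3, -0.027 to 0.19 for Slc26a5 and -3.57 to 1.65 for mt-Rnr2. Depth of P8 input 2 limits low genes most.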
